A study of Mus musculus with 6 samples.

Results

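FGF receptors, FGF ligands and Sprouty inhibitors were examined as a set of 10 genes in RNA-seq libraries of osteogenic mouse bone marrow mesenchymal stromal cells (BMSCs). The genes were matched by name in the gene annotation that accompanies the counts: 4 receptor genes (Fgfr1, Fgfr2, Fgfr3 and Fgfrl1), 3 ligand genes (Fgf2, Fgf7 and Fgf18) and 3 Sprouty genes (Spry1, Spry2 and Spry4). All 10 were found, among 54532 genes in the table, and all 10 passed the filter on low counts that left 14624 genes to test. The cells were primary wild type BMSCs, the adherent stromal cells of the marrow, and both groups were kept for 7 days in osteogenic medium. It held β-glycerophosphate at 10 mM, ascorbic acid at 50 μg/mL and dexamethasone at 100 nM, which together drive osteoblast formation in culture. The Ni group (3 libraries) also received 0.1 μM nickel ions, and the control group (3 libraries) received vehicle. The labels do not give the age, sex or strain of the donor mice. The paper's methods give a lower dexamethasone concentration than the labels.

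FGF ligands bind receptor tyrosine kinases at the cell surface together with heparan sulfate chains, and the activated receptor signals through the adaptor Frs2, Ras and the MAP kinases ERK1 and ERK2. Fgfrl1 has a ligand-binding extracellular part like that of the other receptors but no kinase domain. Sprouty proteins are induced by the pathway and dampen its Ras-ERK branch, a negative feedback. In bone, Fgfr1, Fgfr2 and Fgfr3 are expressed in the osteoblast lineage and in growth plate cartilage, and activating mutations of the receptors cause craniosynostosis and short stature.

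The question asked was how low-dose nickel changed gene expression during osteogenic differentiation. With nickel, Fgfr1 was 1.56 times the control level (95% interval 1.25 to 1.94), and all 3 Ni libraries lay above all 3 control libraries. Fgfr3 was at 1.83 times (1.23 to 2.72) and Fgf2 at 1.39 times (1.03 to 1.88), although for both genes the groups overlapped. Fgfrl1 was at 0.926 times (0.802 to 1.07) and Spry1 at 1.04 times (0.903 to 1.20). None of the 10 genes passed an adjusted p of 0.05 in edgeR's quasi-likelihood test. Over all genes the test also called 0 (0% of 14624), with 1963 genes at an unadjusted p under 0.05. DESeq2's Wald test called 257 (1.83% of the 14065 genes to which it gave an adjusted p). At an unadjusted p under 0.05 in edgeR stood 3 of the 10 (Fgfr1, Fgfr3 and Fgf2), all higher with nickel. Of all genes tested 7.59% were higher at that p, and 13.4% differed in either direction.

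The libraries held from 16101033 to 18642504 counts. Control replicate 3 stood apart from the other controls: over all genes tested its mean distance (1 minus Pearson's r of log2 CPM, counts scaled to library size) was 0.0220 to the other controls and 0.0131 to the Ni libraries. Ni replicate 2 was the Ni library nearest to the controls, at 0.0180. Osteoblast transcripts were clearly present, and all 10 osteoblast markers (Runx2, Sp7, Alpl, Ibsp and others) had their 3 Ni libraries above their 3 controls, as had 7.97% of all genes tested. The summed level of these markers was 1161, 1062 and 2941 CPM in the controls and 6006, 3248 and 6513 CPM in the Ni libraries. Ibsp alone made up most of each sum, at 935, 827 and 2555 CPM in the controls and 5333, 2792 and 5874 CPM with nickel. Runx2 was at 25.5, 22.2 and 27.7 CPM in the controls and at 38.4, 30.9 and 40.0 CPM with nickel. Macrophage markers were abundant as well. The 10 of them, of which none was at 0, summed to between 20429 and 24158 CPM in controls and between 19532 and 20970 CPM in Ni libraries, and Lyz2 alone made up 46.7% to 62.5% of these sums. Without Lyz2 the other 9 summed to 10100, 10957 and 9061 CPM in the controls and to 8737, 8731 and 8374 CPM in the Ni libraries, each Ni library below each control. Of the 10, 7 had a negative log2 fold change, 4 of them with an unadjusted p under 0.05. Over all 14624 genes tested, 7596 were negative and 5.83% were lower at that p. Cd68, Csf1r and Lyz2 were at 1.03, 1.01 and 1.02 times the control level. Neutrophil markers were near 0, with S100a9, Ngp and Ltf at 0 in all libraries. In such bulk RNA, more cells of a type and more RNA per cell cannot be told apart.

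Sequences upstream of the start sites were read for 8 of the 10 genes from RefSeq (GRCm38.p6). Those of Fgf7, Fgfr3 and Fgfrl1 are shown, chosen after the values were seen, to set the most abundant of the 3 ligands and the 2 receptors with the largest positive and the negative log2 fold change beside each other. Each run is the 250 bases before the start, 5′ to 3′ on the gene's strand. Capitals mark a GC box (GGGCGG, on either strand) or an ETS core (CCGGAAG, on either strand), the element bound by the ETS factors that ERK activates. The windows are chr2:126034408-126034657 (plus strand) for Fgf7, chr5:33721474-33721723 (plus strand) for the first listed start of Fgfr3 and chr5:108693979-108694228 (plus strand) for Fgfrl1.

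Fgf7: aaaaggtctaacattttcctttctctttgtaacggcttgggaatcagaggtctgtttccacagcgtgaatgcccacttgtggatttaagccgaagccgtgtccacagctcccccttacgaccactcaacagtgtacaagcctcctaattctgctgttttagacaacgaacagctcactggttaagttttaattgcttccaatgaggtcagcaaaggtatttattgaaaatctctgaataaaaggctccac

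Fgfr3: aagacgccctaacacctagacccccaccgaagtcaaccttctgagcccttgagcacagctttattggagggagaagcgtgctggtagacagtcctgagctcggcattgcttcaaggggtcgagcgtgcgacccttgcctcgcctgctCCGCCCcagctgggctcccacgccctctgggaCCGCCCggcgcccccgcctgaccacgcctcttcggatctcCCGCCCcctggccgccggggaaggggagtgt

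Fgfrl1: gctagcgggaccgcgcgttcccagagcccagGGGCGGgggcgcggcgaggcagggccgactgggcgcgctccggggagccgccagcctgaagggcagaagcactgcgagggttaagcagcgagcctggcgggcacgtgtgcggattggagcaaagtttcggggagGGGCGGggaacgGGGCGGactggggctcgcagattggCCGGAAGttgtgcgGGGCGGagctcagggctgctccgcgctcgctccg

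The Fgf7 window was 43.6% G and C and held neither element, while the Fgfr3 window was 66.8% and held 3 GC boxes, and the Fgfrl1 window was 73.6% and held 4 GC boxes and 1 ETS core. Among 32851 windows of the same length, the median was 52.4% G and C, a GC box was in 32.7% and an ETS core in 6.91%. Of the 8 genes with a window, Fgfr3, Fgfrl1, Fgf2, Fgf18 and Spry1 held a GC box, and Fgfrl1 held the ETS core. The windows of Fgf7, Fgfr2 and Spry2 held neither. A RUNX element (TGTGGT, in 14.0% of windows), an AP-1 element (TGANTCA, 6.75%) and a TATA element (TATAAA, 12.4%), each searched on both strands, were found in none of the 9 windows of these genes. The letters describe the windows and say nothing of binding.

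Levels of different genes were set side by side on the FPKM scale (fragments scaled to gene length and library size), as deposited by the authors. That length counts the annotated exon bases of a gene, 9875 for Fgfr1 and 2782 for Fgfrl1. It can exceed the length of the transcripts expressed, so the order between genes depends on it. By the mean over the 6 libraries the order was Spry1 at 20.3 FPKM, Fgfr1 at 17.3, Fgf7 at 15.9, Fgfrl1 at 14.6, Fgfr2 at 7.27, Spry2 at 4.39, Fgf2 at 2.15, Spry4 at 1.36, Fgfr3 at 1.32 and Fgf18 at 0.645. Spry1 was above Fgf7 and Fgfrl1 in every library. All other pairs among Spry1, Fgfr1, Fgf7 and Fgfrl1 changed places between libraries, so their order does not exceed their spread. Fgfr2 was below each of these 4 in every library, followed in every library by Spry2 and then Fgf2. Spry4 and Fgfr3 came next and were not separated from each other. Fgf18 was below Spry4 in every library but above Fgfr3 in control replicate 1, and it rested on 5 to 21 counts per library.

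**Figure D1:**
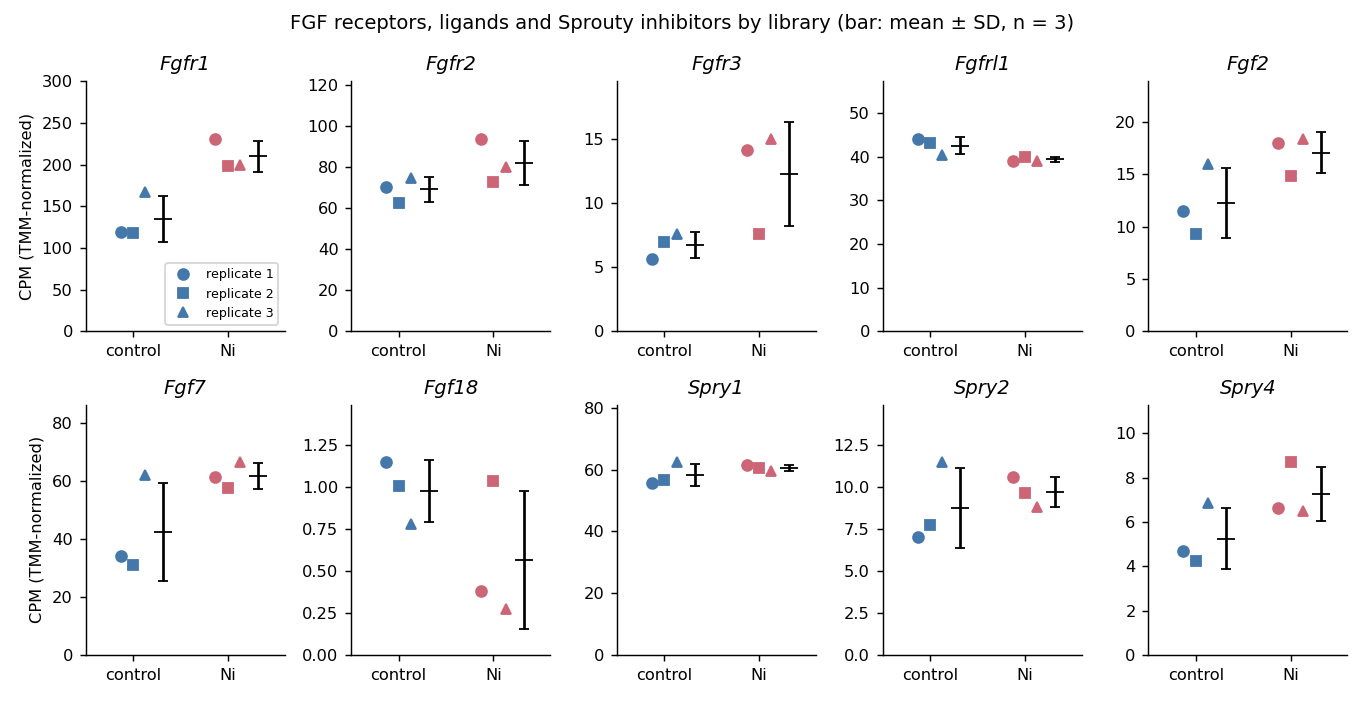
TMM-normalized CPM of the 10 genes in each library (symbols: replicates 1 to 3 of control in blue and Ni in red), with the group mean and SD (n = 3) in black. The Ni libraries lie entirely above the controls for Fgfr1, from 199 to 231 against 118 to 167 CPM, and entirely below them for Fgfrl1, while the other 8 genes overlap.

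Among the receptors, Fgfr1, which encodes a widely expressed stromal FGF receptor, showed the clearest separation. It was at 119, 118 and 167 CPM in the controls and at 231, 199 and 200 CPM in the Ni libraries. Control replicate 3 was the highest control, between the other 2 controls and the Ni libraries. The means were 135 ± 27.9 and 210 ± 18.4 CPM (SD, n = 3), and the log2 fold change was 0.64 (95% interval 0.32 to 0.96, edgeR adjusted p = 0.214). Without control replicate 3 it was 0.83 (adjusted p = 0.000229), in a fit that called 15.2% of 15044 genes (8.69% higher and 6.49% lower) and 4 of the 10. Control replicate 3 is the control nearest to the Ni libraries, so leaving it out widens the difference between groups by construction. Calls of that fit, here and for the other genes, therefore support nothing. For Fgfr1, DESeq2 on all libraries gave 0.64 (adjusted p = 0.00667). Its gene model (ENSMUSG00000031565) spans bases 25513654 to 25575718 of chromosome 8 in GRCm38, plus strand, and 1.66% of its exon bases are shared with Gm16159 on the opposite strand. The strand setting of the counting is not given in the sources used here, so reads from such shared bases cannot be assigned to either gene.

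Fgfr2, whose splice forms bind different ligands, was at 70.3, 62.6 and 74.5 CPM in the controls and at 93.7, 72.6 and 79.8 CPM in the Ni libraries. The groups overlapped through Ni replicate 2. On the log2 scale nickel and control differed by 0.25 (95% interval -0.01 to 0.51, adjusted p = 0.390 in edgeR). The gene model (ENSMUSG00000030849) spans chromosome 7 from 130162451 to 133123350 and shares 314 of its 10328 exon bases with Ctbp2 on the same strand, a corepressor gene with an adjusted p of 0.921.

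Fgfr3, the receptor known for restraining growth plate chondrocytes, was the least abundant of the 3 signalling receptors detected. It was at 5.63, 6.93 and 7.62 CPM in the controls and at 14.2, 7.60 and 15.0 CPM in the Ni libraries. Ni replicates 1 and 3 were far above every control, and Ni replicate 2 lay within the control range. The same pair of Ni libraries held the highest osteoblast marker sums, of which Ibsp made up most. The 5 chondrocyte markers, of which 3 were tested, summed to between 142 and 240 CPM in controls and between 272 and 323 CPM with nickel. Col2a1 and Comp made up most of these sums. In any library Sox9 was at most at 8.96 CPM, Acan had at most 4 counts and Matn1 at most 9. The part of either marker list in the Fgfr3 values was not tested. The estimated difference was 0.87 on the log2 scale (95% interval 0.30 to 1.44, edgeR adjusted p = 0.293). It was 0.98 without control replicate 3 (adjusted p = 0.0379) and 1.12 without Ni replicate 2 (adjusted p = 0.0832). Of its exon bases (ENSMUSG00000054252, chromosome 5, 33721674 to 33737068), 13.9% also belong to G630022F23Rik on the opposite strand, which had at most 2 counts in a library.

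Fgfrl1, the receptor without a kinase domain, was at 44.1, 43.2 and 40.4 CPM in the controls and at 39.1, 40.0 and 39.1 CPM in the Ni libraries. Every Ni library was below every control, as for 6.71% of all genes tested, but by a small amount. The means were 42.6 ± 1.97 and 39.4 ± 0.507 CPM (SD, n = 3). Its log2 fold change was -0.11 (95% interval -0.32 to 0.10, adjusted p = 0.636 in edgeR). The gene (ENSMUSG00000008090) lies between 108692382 and 108706924 of chromosome 5. Of the 10 genes, 1 was entirely higher with nickel (Fgfr1, against 7.97% of all genes) and 1 entirely lower (Fgfrl1), with 14.7% of all genes in either direction.

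The receptor transcripts were also compared as shares of their sum on the FPKM scale. Fgfr1 made up 34.0%, 34.7% and 42.6% of the summed receptor FPKM (Fgfr1, Fgfr2, Fgfr3, Fgfr4 and Fgfrl1) in the controls and 48.2%, 47.3% and 45.8% in the Ni libraries. Fgfrl1 made up 44.7%, 45.0% and 36.5% in the controls and 29.0%, 33.8% and 31.9% with nickel. For both shares the groups did not overlap (exact permutation test, two-sided, p = 0.1, the smallest that 3 against 3 libraries can give). Shares of a sum depend on each other, so these are not separate results, and a higher Fgfr1 level by itself lowers the Fgfrl1 share. The level of Fgfrl1 was at 0.926 times the control level (95% interval 0.802 to 1.07). Fgfrl1 had the highest FPKM of the receptors in control replicates 1 and 2, and Fgfr1 in control replicate 3 and the 3 Ni libraries. This order and the shares rest on the gene lengths used, 9875 bases for Fgfr1 and 2782 for Fgfrl1. In counts, Fgfr1 was above Fgfrl1 in control replicates 1 and 2 as well, at 2181 and 1879 against 808 and 686. The share of Fgfr2 was 18.3% ± 0.815 in controls and 17.6% ± 1.10 with nickel (SD, n = 3, exact permutation test, two-sided, p = 0.4). The share of Fgfr3 was 2.56% ± 0.311 in controls and 3.78% ± 1.16 with nickel (SD, n = 3, exact permutation test, two-sided, p = 0.3). Fgfr4 had 1 count in control replicate 3 and 0 in the other 5 libraries. Since these 4 p-values belong to 1 family, none can pass a correction in this design.

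**Figure D2:**
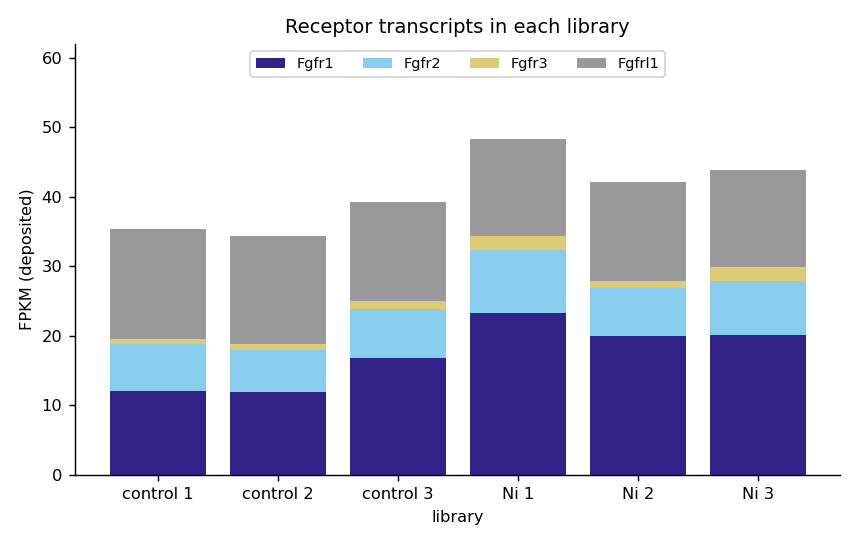
Deposited FPKM of the 4 detected receptor transcripts in each library, stacked so that the bar height is their sum. The Fgfr1 part is 11.9 to 16.7 FPKM in controls and 19.9 to 23.3 FPKM with nickel, while the Fgfrl1 part stays between 14.0 and 15.8 FPKM.

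Among the ligands, Fgf7 (keratinocyte growth factor, a stromal ligand that acts mainly on the epithelial splice form of Fgfr2) was the most abundant of the 3 members. It was at 34.3, 31.0 and 61.9 CPM in the controls and at 61.2, 57.6 and 66.3 CPM in the Ni libraries. Control replicate 3 lay within the range of the Ni libraries, and the other 2 controls were the lowest of the 6 libraries, well below the rest. The difference was 0.54 on the log2 scale (95% interval -0.02 to 1.10, adjusted p = 0.382 in edgeR). It was 0.92 without control replicate 3 (adjusted p = 0.00024), the control nearest to the Ni libraries, in the fit that called 15.2% of all genes. The gene (ENSMUSG00000027208) lies on chromosome 2 from 126034658 to 126091185 and shares no exon base with another gene.

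Fgf2, or basic FGF, a ligand that binds several receptors and is a strong mitogen of stromal cells, was at 11.5, 9.32 and 16.0 CPM in the controls and at 18.0, 14.8 and 18.4 CPM in the Ni libraries. Ni replicate 2 was below control replicate 3, so the groups overlapped. This came to a log2 fold change of 0.47 (95% interval 0.04 to 0.91, edgeR adjusted p = 0.350) and to 0.71 without control replicate 3 (adjusted p = 0.0115). The gene (ENSMUSG00000037225, chromosome 3, 37348346 to 37410108) shares 640 of 6782 exon bases, or 9.44%, with Nudt6 on the opposite strand. Nudt6 had from 37 to 55 counts per library and an adjusted p of 0.975, against 148 to 333 counts for Fgf2.

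Fgf18, a ligand of Fgfr3 known for its part in cartilage and calvarial bone, was barely detected. Its counts were 21, 16 and 13 in the controls, against 7, 18 and 5 in the Ni libraries. Ni replicates 1 and 3 were below every control and Ni replicate 2 was among the controls, the same pair of libraries that stood out in the other direction for Fgfr3. Fgf18 (ENSMUSG00000057967, chromosome 11, 33117430 to 33147400) was at 0.571 times the control level, and at this depth the 95% interval ran from 0.249 to 1.31 times (edgeR adjusted p = 0.538). Its log2 fold change was -0.81 with all libraries and -1.57 without Ni replicate 2 (adjusted p = 0.253).

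Among the Sprouty genes, Spry1 had the highest mean FPKM over the 6 libraries and the log2 fold change nearest to 0 of the 10 genes. Within the Ni group its mean of 20.7 FPKM was below the 21.1 FPKM of Fgfr1. It was at 55.8, 56.6 and 62.3 CPM in the controls and at 61.6, 60.4 and 59.7 CPM in the Ni libraries. The 3 Ni libraries lay within the range of the controls. The log2 fold change was 0.06 (95% interval -0.15 to 0.26, adjusted p = 0.826 in edgeR). Of its exon bases (ENSMUSG00000037211, chromosome 3, 37639947 to 37644598), 24.4% are shared with Gm42922 on the opposite strand, which had at most 10 counts in a library.

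Spry2 (ENSMUSG00000022114, chromosome 14, 105891947 to 105896819) was at 7.05, 7.75 and 11.5 CPM in the controls and at 10.6, 9.67 and 8.78 CPM in the Ni libraries. Here control replicate 3 was the highest of all 6 libraries. Nickel and control differed by a log2 fold change of 0.15 (95% interval -0.31 to 0.60, adjusted p = 0.795 in edgeR) and 0.39 without control replicate 3. Spry4 (ENSMUSG00000024427, chromosome 18, 38586268 to 38601268) was at 4.70, 4.22 and 6.84 CPM in the controls and at 6.62, 8.69 and 6.52 CPM in the Ni libraries, with Ni replicate 2 the highest. Its log2 fold change was 0.47 (95% interval -0.05 to 0.99, adjusted p = 0.405 in edgeR). It was 0.71 without control replicate 3 and 0.33 without Ni replicate 2. The median over the 3 Sprouty genes was 0.15 on the log2 scale, and none had an unadjusted p under 0.05 in edgeR.

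**Figure D3:**
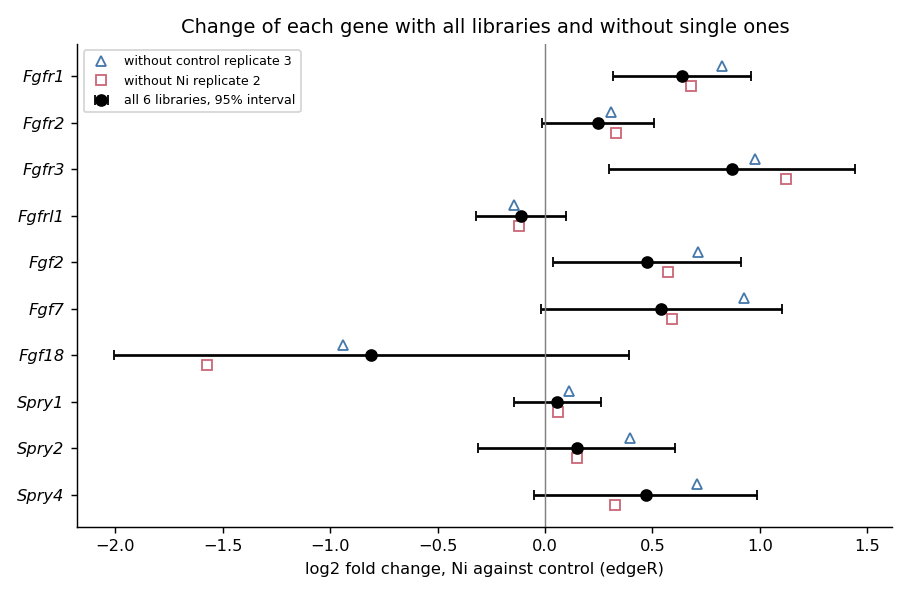
Log2 fold change of each gene between Ni and control from edgeR, with all 6 libraries and a 95% interval (black), without control replicate 3 (blue triangles) and without Ni replicate 2 (red squares). The direction of each gene is the same in the 3 fits, and apart from the scarce Fgf18, Fgf7 moves most, from 0.54 to 0.92 without control replicate 3.

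The controls differed among themselves for most of the 10 genes. Control replicate 3 differed from the mean of the other 2 controls by 0.92 on the log2 CPM scale for Fgf7, 0.62 for Spry2, 0.62 for Fgf2, 0.61 for Spry4 and 0.49 for Fgfr1. It differed by 0.28 for Fgfr3, 0.15 for Spry1, 0.17 for Fgfr2, -0.11 for Fgfrl1 and -0.41 for Fgf18. In 8 of the 10 genes this library was nearer to the mean of the Ni libraries than to the mean of the other controls, Fgfr3 and Fgf18 being the exceptions. Over all genes tested it was likewise nearer to the Ni libraries (mean distance 0.0131 against 0.0220). The share of all genes for which this holds was not computed. The osteoblast marker sum of that library, 2941 CPM with Ibsp alone at 2555 CPM, was also the highest of the controls. Its macrophage marker sum was the highest of all libraries with Lyz2, at 15097 CPM for that gene alone, and the lowest of the controls without it. The stromal marker sum (10 genes led by Col1a1 and Col1a2, none at 0) ran from 9707 to 17145 CPM in controls, the highest in control replicate 3, and from 21761 to 26914 CPM with nickel. Col1a1, Col1a2 and Col3a1, collagens of which the first pair is also abundant in bone matrix, made up at least 95.5% of these sums. The other 7 genes summed to 438, 408 and 715 CPM in the controls and to 1041, 737 and 1096 CPM with nickel, while among them Pdgfra was at 1.05 times and Thy1 at 0.952 times the control level. The part of these differences in the values of the FGF genes was not tested.

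**Figure D4:**
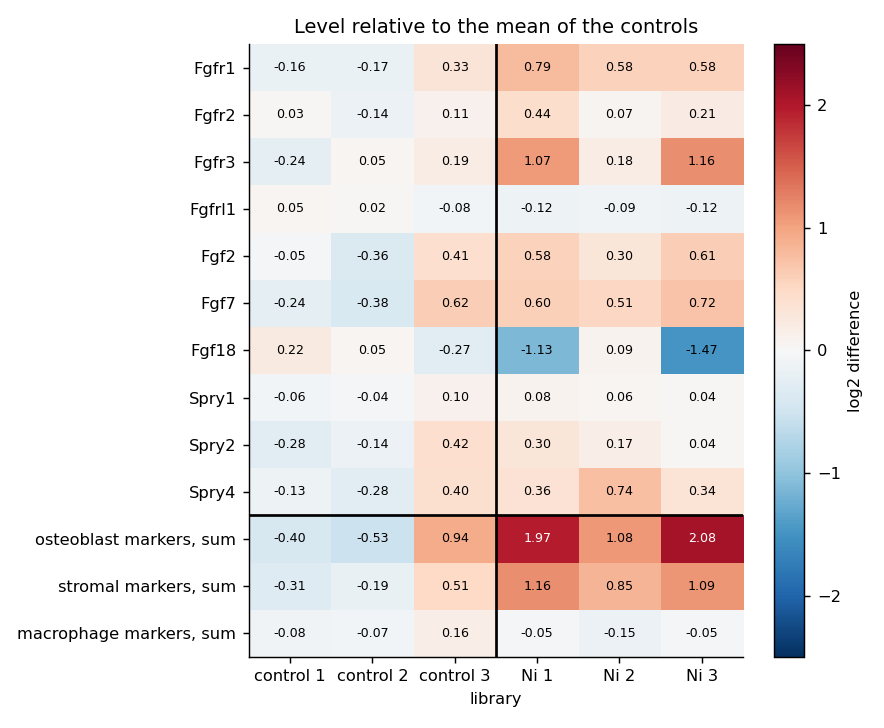
Log2 level of each gene and of 3 summed marker lists in each library, relative to the mean of the controls (color and number). Control replicate 3 is above the other controls for Fgf7, Fgf2, Spry2, Spry4 and the osteoblast markers, and Ni replicate 2 is near the controls for Fgfr3 and Fgf18.

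The other genes of the pathway were taken from 6 lists of 93 genes, of which 71 were tested. None passed an adjusted p of 0.05 in edgeR. At an unadjusted p under 0.05, 7 of the 71 were higher with nickel and 2 lower, against 7.59% and 5.83% of all genes tested. The median log2 fold change was 0.08 over the 71 genes, 0.36 over the 10 members and -0.01 over all genes tested.

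Heparan sulfate proteoglycans hold FGF ligands at the cell surface and help them engage their receptors. Of 17 receptor, co-receptor and ligand-binding genes 11 were tested, with a median log2 fold change of 0.27, 4 higher at an unadjusted p under 0.05 (Gpc1, Hspg2, Sdc3 and Sdc2) and 0 lower. The other tested proteoglycans of the list, named after their values were seen, did not reach that p: Sdc1 at a log2 fold change of 0.47 (95% interval -0.07 to 1.00), Sdc4 at 0.25 (95% interval -0.17 to 0.66), Gpc4 at 0.18 (95% interval -0.08 to 0.43) and Gpc6 at 0.05 (95% interval -0.18 to 0.29). Gpc1, which encodes the glycosylphosphatidylinositol-anchored glypican-1, was at 13.1, 15.0 and 21.6 FPKM in the controls and at 31.7, 27.5 and 30.1 FPKM in the Ni libraries. All its Ni libraries were above its controls, as for Fgfr1, and its log2 fold change was 0.84 (95% interval 0.46 to 1.23, edgeR adjusted p = 0.208). Without control replicate 3 it was 1.08 (adjusted p = 7.15e-05), and with DESeq2 0.85 (adjusted p = 0.000668). Hspg2, the basement membrane proteoglycan perlecan, differed by 0.50 on the log2 scale (95% interval 0.17 to 0.84, edgeR adjusted p = 0.293), and every Ni library was above every control.

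The syndecans Sdc3, Sdc4 and Sdc2, which carry their heparan sulfate on transmembrane cores, had the highest mean FPKM of this list. Sdc3 was at 139 to 159 FPKM in controls and 171 to 186 FPKM with nickel, a log2 fold change of 0.27 (adjusted p = 0.352 in edgeR). Sdc2 was at 35.2 to 53.2 FPKM in controls and 45.7 to 59.6 FPKM with nickel, with groups that overlapped and a log2 fold change of 0.39 (adjusted p = 0.371). Among 11 tested enzymes that build or edit heparan sulfate, Ext2, a subunit of the chain polymerase, was the 1 gene with an unadjusted p under 0.05, at 0.24 on the log2 scale (95% interval 0.03 to 0.45, edgeR adjusted p = 0.340). Extl3, which starts the chain, was at 0.01 (95% interval -0.20 to 0.22), and Ndst2, an N-deacetylase and sulfotransferase, at -0.15 (95% interval -0.37 to 0.06).

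Of the 19 other FGF ligands 5 were tested, and 14 were too scarce. Fgf11, an intracellular FGF homologue that is not secreted, was the most abundant of them and was higher in the 2 controls that lay farthest from the Ni libraries. It was at 17.4, 21.1 and 7.20 FPKM in the controls and at 8.02, 9.50 and 7.07 FPKM with nickel. Control replicate 3 was below Ni replicates 1 and 2, so the groups overlapped. Nickel and control differed by -0.90 on the log2 scale (95% interval -1.77 to -0.03, edgeR adjusted p = 0.367), and by -1.23 without control replicate 3 (adjusted p = 0.000181). Fgf10, a mesenchymal ligand related to Fgf7, was highest in control replicate 3, at 0.865 FPKM against at most 0.682 in any other library, and its log2 fold change was 0.33 (95% interval -0.54 to 1.20). Without control replicate 3 it was 0.98 (edgeR adjusted p = 0.0549), and without control replicate 1 it was 0.08. Fgf1 was at 0.05 (95% interval -0.39 to 0.50).

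The 20 signal transducers were evenly divided, 10 above and 10 below 0 on the log2 scale, and their median was 0.01. Mapk3 (ERK1), with the highest mean FPKM, was at 0.02 (95% interval -0.21 to 0.25), and Map2k1 (MEK1) at 0.06 (95% interval -0.14 to 0.26). The adaptor Grb2 was at -0.30 (95% interval -0.59 to 0.0033, adjusted p = 0.375 in edgeR). Sos1, the exchange factor that Grb2 brings to Ras, was at -0.48 (95% interval -0.93 to -0.03, edgeR adjusted p = 0.357), with 903 counts in control replicate 3 against 1363 and 1830 in the other controls and 977 to 1063 with nickel.

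Feedback inhibitors and transcriptional targets, which are commonly read as a record of ERK output, had medians near that of all genes. The 11 tested inhibitors outside the Sprouty members had a median log2 fold change of 0.07 and the 13 targets of 0.02. ERK activity itself was not measured in these libraries. Of the 13 targets 7 had a positive and 6 a negative log2 fold change. Fosl1 and Ccnd1, named after their values were seen, were at 0.60 (95% interval -0.04 to 1.24) and 0.45 (95% interval -0.03 to 0.94). Dusp6, the phosphatase that inactivates ERK, was at 0.08 (95% interval -0.18 to 0.34). Spred1 and Spred2, relatives of the Sprouty proteins, were at 0.09 (95% interval -0.16 to 0.33) and 0.07 (95% interval -0.22 to 0.37). Etv5, an ETS factor induced by FGF, was at -0.03 (95% interval -0.26 to 0.19). Etv4, its relative, was at 0.15 (95% interval -0.68 to 0.97), and it had 125 counts in control replicate 3 against at most 98 in any other library. Il17rd, an FGF receptor antagonist, was at 0.48 (95% interval -0.32 to 1.29), Errfi1, an inhibitor of the EGF receptor family, at -0.09 (95% interval -0.41 to 0.22), and the early response genes Junb and Ier3 at -0.08 (95% interval -0.37 to 0.21) and 0.40 (95% interval -0.17 to 0.98).

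A pair of genes in these last lists had an unadjusted p under 0.05. Spry3, the remaining Sprouty gene, was scarce, with 6, 7 and 21 counts in the controls against 38, 19 and 31 with nickel. It differed by 1.27 on the log2 scale (95% interval 0.11 to 2.44, edgeR adjusted p = 0.350), and Ni replicate 2 was below control replicate 3. Leaving out 1 library at a time gave from 0.93 to 2.10, the highest without control replicate 3 (adjusted p = 0.0203). Spp1, which encodes osteopontin and is also a bone matrix gene, was at 0.63 (95% interval 0.01 to 1.25, edgeR adjusted p = 0.367) and was within the Ni range in control replicate 3.

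**Figure D5:**
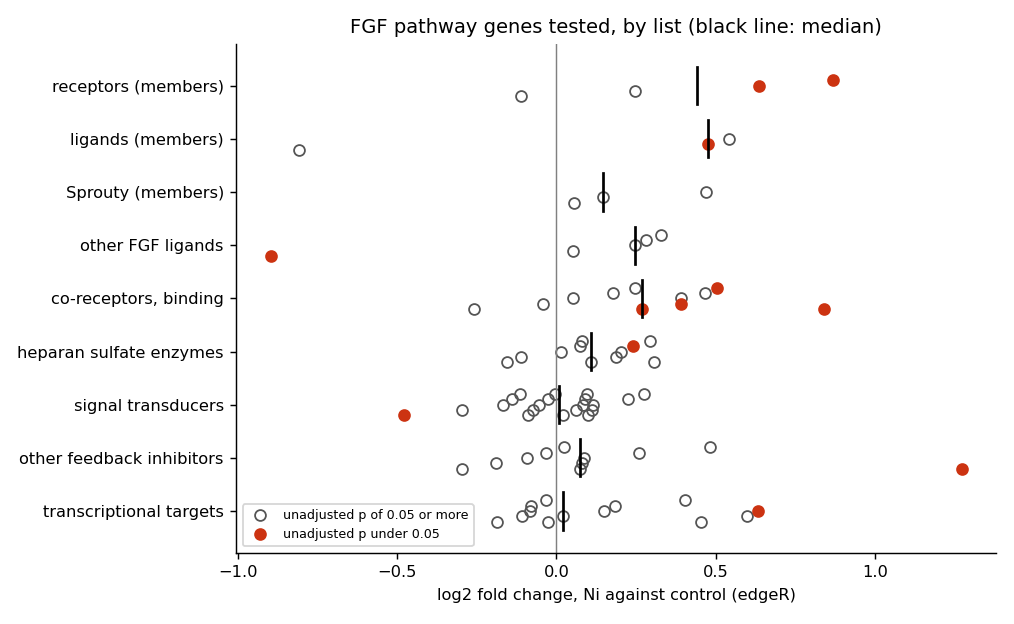
Log2 fold change between Ni and control from edgeR for every tested gene of the FGF pathway, by list, with the list's median as a black line. Filled red points have an unadjusted p under 0.05, and the medians run from 0.01 for the signal transducers to 0.47 for the 3 ligand members.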

How the data were processed

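RNA-seq was analysed from tables of mouse BMSCs after 7 days of osteogenic induction, 3 control and 3 Ni libraries, grouped by sample title. The authors deposited whole-number read counts per gene, without normalization, and FPKM values. These equal the counts divided by gene length and 1 factor per library (largest relative deviation 4.08e-08). The labels name GRCm38. The aligner, counting tool, strand setting and differential test are not given in the sources used here.

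Counts were filtered by filterByExpr, normalized by TMM and tested over all 14624 genes by edgeR 4.0.16 (glmQLFit, robust, and glmQLFTest) in R 4.3.3, with Benjamini-Hochberg adjustment. Standard errors and intervals come from the unshrunk coefficient and the F statistic. CPM values are TMM-normalized, and log2 CPM used a prior count of 2. Alternatives were DESeq2 1.42.0, limma 3.58.1 on log2(FPKM + 1) and log2(FPKM + 0.1), other scalings and filters, single libraries left out and the replicate block. On simulated counts holding 200 genes with a log2 change of 1 among 14408, the edgeR fit found 67.0% of them, and 8.84% of its calls were false. With no gene changed it called 0 of 14402. The simulated counts were drawn independently for each gene, without the shift shared across genes seen in control replicate 3. These rates therefore need not hold for the real libraries.

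Libraries within a group differed beyond sampling noise, so none was counted as a duplicate (chi-square divided by its degrees of freedom 4.56 to 47.8). The series design describes the replicates as independent and biological. Whether they came from separate mice or cultures is not stated, so p-values measure the spread between these libraries. Exon overlaps were computed on GENCODE M21, whose coordinates matched the deposited annotation for 9 of the 10 genes (not Spry4). The members and lists were chosen with earlier results of these data known. The text names all 10 members. Of the pathway lists it names the genes at an unadjusted p under 0.05, the 3 with the highest mean FPKM in each list, and Fgfr4, Dusp6, Etv4, Etv5, Spred1, Spred2 and Il17rd. Sdc1, Gpc4, Gpc6, Fosl1 and Ccnd1 were added after their values were seen.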

Additional observations from a re-analysis of the deposited data

How the results depend on the processing

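All 10 genes kept their direction under every alternative that gave a value (Fgf18 has none with at least 10 counts in every library). At an adjusted p under 0.05 in edgeR stood 0 genes and 0 of the 10. With no filter on low counts these were 1027 of 25876 genes and 3 of the 10 (Fgfr1 0.65, adjusted p = 8.81e-06, Fgfr3 0.88, adjusted p = 0.000736, and Fgf7 0.55, adjusted p = 0.0105). With DESeq2 they were 257 of 14065 and 1 (Fgfr1 0.64, adjusted p = 0.00667). Without control replicate 3 and Ni replicate 2, an alternative chosen after seeing the data, they were 3843 of 14825 and 5 (Fgfr1 0.86, adjusted p = 1.55e-07, Fgfr2 0.39, adjusted p = 0.00415, Fgfr3 1.22, adjusted p = 4.80e-05, Fgf2 0.80, adjusted p = 0.000739, and Fgf7 0.97, adjusted p = 3.86e-07). That last fit leaves out of each group the library nearest to the other group, which by its construction widens the difference between groups, so its calls support nothing. With the replicate block they were 315 of 14624 genes and 1 of the 10 (Fgfr1 0.65, adjusted p = 0.0469). In that fit 5 of the 10 had an unadjusted p under 0.05, as had 2769 of the 14624 genes tested. The deviations of libraries sharing a replicate number correlated at 0.0104, 0.256 and 0.138, and those of unlike numbers at -0.219 to 0.065. No pairing is stated in the labels, and the numbers were not taken to pair the libraries. At an unadjusted p under 0.05 stood 1963 of 14624 genes and 3 of the 10. These became 3057 of 25876 and 6 with no filter, and 5332 of 14825 and 7 without control replicate 3 and Ni replicate 2. The cause was not tested. Leaving out 1 library at a time left from 14924 to 15044 genes to test. From 0 to 2283 of them and from 0 to 4 of the 10 had an adjusted p under 0.05. From 868 to 4125 genes and from 2 to 7 of the 10 had an unadjusted p under 0.05. The highest count came each time without control replicate 3. The fit without that library leaves out the control nearest to the Ni libraries, which likewise widens the difference, so its calls support nothing either.

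The ranges over these 6 fits were 0.55 to 0.83 for Fgfr1, 0.14 to 0.33 for Fgfr2, 0.70 to 1.12 for Fgfr3, -0.14 to -0.08 for Fgfrl1, 0.31 to 0.71 for Fgf2, 0.36 to 0.92 for Fgf7, -1.57 to -0.48 for Fgf18, 0.03 to 0.11 for Spry1, 0.01 to 0.39 for Spry2 and 0.33 to 0.71 for Spry4. Adjusted p under 0.05 came only without control replicate 3, for Fgfr1, Fgfr3, Fgf2 and Fgf7. The direction reversed in some of these fits for Fgf1 (-0.0310 to 0.14), Etv4 (-0.16 to 0.74), Etv5 (-0.0943 to 0.0464), Spred2 (-0.0163 to 0.20), Extl3 (-0.0324 to 0.0680), Mapk3 (-0.0542 to 0.0730), Junb (-0.23 to 0.00923) and Errfi1 (-0.19 to 0.0760). The share of Fgfr1 in the receptor FPKM was higher with nickel by 8.46 to 12.8 percentage points, and the share of Fgfrl1 differed by -13.3 to -9.05. Without control replicate 3 and Ni replicate 2, Junb was at -0.275 and Etv5 at -0.0947. Fgf18 and Spry3 rest on few counts, and Fgfr4 was too scarce to test.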
